A study of Mus musculus with 21 samples.

Results

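The comparison described here set 3 libraries of mouse embryonic stem cells (ESC) exposed to retinoic acid (RA) for 24 h against 3 libraries of the same cells cultured for 24 h without RA, 6 of the 21 samples of the study. The study followed wild type ESC over a time course of 15 poly(A) RNA libraries and a further 6 libraries of wild type and Cyp26a1 knockout cells, which were not used. All cells compared here were wild type and were given only as ESC, with no line name, sex or passage. They had been grown on gelatin in serum with the cytokine LIF and 2 inhibitors (2i), the MEK inhibitor PD0325901 and the GSK3 inhibitor CHIR99021. The libraries named noRA_24h came from cells kept for 24 h after LIF and 2i were taken away, and those named RA_24h from cells given 2 µM RA for 24 h. The labels do not state whether LIF and 2i were also taken away from the RA cells of the time course, so the comparison may hold a difference in these factors beside RA. The labels do not say that the 3 replicates of a group were grown as separate cultures; the p-values rest on the spread of these libraries, and that spread may be technical. The comparison asks which transcripts differ between cells with and without RA at the same time point.

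Retinoic acid is a small lipid made from vitamin A that enters cells, is carried by binding proteins and is destroyed by enzymes of the CYP26 family. In the nucleus it binds retinoic acid receptors (RAR), which sit on DNA as pairs with retinoid X receptors (RXR) and switch from repressing to activating transcription when RA arrives. In ESC, RA is a classical differentiation signal that is known for opening the Hox gene clusters and for driving neural or extraembryonic endoderm fates, depending on dose and culture.

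Levels are in TPM, transcript abundance scaled by gene length and library total, and a change is the difference between the 2 group means of log2(TPM + 1), RA_24h minus noRA_24h. Group levels are given as mean ± SD over 3 libraries, values of single libraries in the order 1, 2 and 3, and changes ± SE. On this scale the change of a gene below a few TPM is understated. A gene is said to have risen or fallen where limma gave an adjusted p (Benjamini-Hochberg over all genes tested) below 0.05. Of 32285 gene IDs, 13948 reached 1 TPM in at least 3 of the 15 time course libraries and were tested. At 24 h 3178 genes were higher with RA (22.8% of those tested) and 1737 were lower (12.5%), and the median change over all genes tested was 0.019. Counts in the gene lists below are to be read beside these shares, and no list was tested as a set. A count near the shares is no result about a list, also where this is not repeated. A 2-fold or greater change was reached by 605 genes upward (4.34%) and 436 downward (3.13%), and an 8-fold change by 52 upward and 11 downward. The 6 libraries did not overlap between the groups in 3090 of the 3178 higher genes and in 1674 of the 1737 lower genes. The calls came from the same libraries, so this separation is no independent support for them, and the share over all genes tested is not given here. After correction for gene length and GC content, the split was 2653 higher and 2389 lower.

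Libraries stood apart, RA_24h library 2 most. In the residuals from the group means over all tested genes, 1 axis held 67.24% of the variance, and on it RA_24h library 2 lay at 49.8, RA_24h libraries 1 and 3 at −18.6 and −31.2, and the 3 noRA_24h libraries between −8.02 and 7.78. Of the noRA_12h libraries, controls of the comparison with 12 h, libraries 1 and 2 lay at 40.2 and −35.1, and the correlation within that group went down to 0.966. Correlation between the RA_24h libraries ran from 0.958 to 0.994 over genes, against 0.992 to 0.994 between the noRA_24h libraries. The shift followed gene length: relative to the noRA_24h mean, the median of the longest of 5 equal length classes of genes (7105 to 123179 bp of exon) was 0.196 in library 2 and −0.206 and −0.357 in libraries 1 and 3, while in the shortest length class (38 to 2050 bp) libraries 2, 1 and 3 gave 0.058, 0.099 and 0.140. Among 9187 genes with at least 5 TPM, 910 were at least 2-fold higher in library 2 than in both other RA_24h libraries and 2 were at least 2-fold lower. Pds5a, a cohesin regulator with a long transcript, read 9.36, 71.9 and 7.64 TPM with RA and 42.8 TPM on average without it. Smc3, a core cohesin subunit, read 6.65, 44.9 and 6.62 TPM with RA against a mean of 26.2 TPM, and the mitotic motor Kif11 7.82, 49.1 and 6.15 TPM against 28.0 TPM. Ift46, a protein of cilium transport, went the other way, with 110, 52.8 and 108 TPM. For Pds5a, Smc3, Kif11 and Ift46 the 2 groups overlapped, and none of them passed the test with all libraries. Without library 2, Pds5a (−2.13), Smc3 (−1.80) and Kif11 (−1.81) fell, with adjusted p of 0.00954, 0.0226 and 0.0249 (limma).

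**Figure D1:**
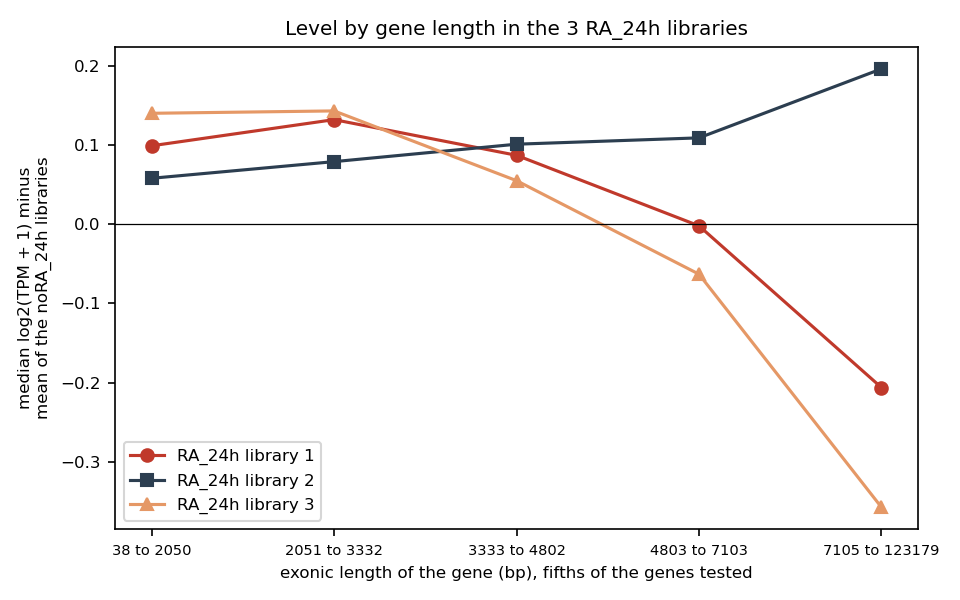
Median level of the genes in each of 5 equal classes of exonic length (x axis, bp) in each RA_24h library, as log2(TPM + 1) minus the mean of the 3 noRA_24h libraries (y axis), 1 line per library. Library 2 rises to 0.196 in the longest length class, where libraries 1 and 3 drop to −0.206 and −0.357.

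Leaving out library 2 gave 3948 higher and 3583 lower genes, and 1336 rather than 436 genes lower by 2-fold or more. Of those 1336, 405 were among the 436. The 931 found only without library 2 had a median exonic length of 6534 bp, against 4033 bp over all genes tested. Counts of long genes that fell therefore depend on that library, and the part of RNA quality, of library preparation and of RA in this length dependence was not tested. The count of genes higher by 2-fold or more moved far less, from 605 to 640 without library 2. When each of the 6 libraries was left out in turn, 597 of these 605 remained called, as did 385 of the 436 lower genes. Aligned bases per library, computed from the deposited coverage, ran from 2.96 to 3.91 Gb, with 11928 to 13482 genes at 1 TPM or more, the highest number in RA_24h library 2.

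The defining ESC genes were present in all 6 libraries. The summed level of the 10 ESC identity markers was 9032 to 9072 TPM without RA and 7941 to 8997 TPM with it; 6 of the 10 fell and 2 rose (8 and 2 after correction for length and GC content). Pou5f1, the core pluripotency factor also called Oct4, read 2805, 2717 and 2757 TPM without RA and 2380, 2124 and 2586 TPM with RA. Its small fall (change −0.23, adjusted p 0.0254, limma) did not hold in 9 of 18 alternatives, among them the omission of any 1 library but RA_24h library 3 (adjusted p 0.0512 to 0.0756) and median-of-ratios scaling (0.101). Nanog, in contrast, rose from 164 ± 6.97 to 246 ± 12.7 TPM (SD, n = 3).

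The enzyme that destroys RA gave the largest change of any gene tested. Cyp26a1, a cytochrome P450 that oxidises RA, read 0.681, 0.961 and 0.608 TPM without RA and 336, 281 and 324 TPM with it. All 3 RA libraries stood far above all 3 without RA, the means differed 418-fold, and the change was 7.49 ± 0.13 (SE; limma, Benjamini-Hochberg adjusted p 6.12e-13). Its promoter, and that of the receptor gene Rarb, are printed because each holds the textbook binding element of the RAR and RXR pair, a DR5: 2 copies of a 6-base core in the same direction with 5 bases between. The sequences run from 250 bases before to 50 after the RefSeq start on build GRCm38.p6 (mm10), 5′ to 3′ on the gene's strand, with the 2 cores in capitals. They lie at chr19:37697558-37697857 on the plus strand for Cyp26a1 and at chr14:16575427-16575726 on the minus strand for Rarb.
Cyp26a1: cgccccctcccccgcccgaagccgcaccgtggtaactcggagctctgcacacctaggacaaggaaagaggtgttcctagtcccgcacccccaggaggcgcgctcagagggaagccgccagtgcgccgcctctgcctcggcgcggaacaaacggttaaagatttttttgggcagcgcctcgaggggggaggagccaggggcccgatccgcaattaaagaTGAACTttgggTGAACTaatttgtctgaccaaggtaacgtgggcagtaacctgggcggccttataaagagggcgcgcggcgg
Rarb: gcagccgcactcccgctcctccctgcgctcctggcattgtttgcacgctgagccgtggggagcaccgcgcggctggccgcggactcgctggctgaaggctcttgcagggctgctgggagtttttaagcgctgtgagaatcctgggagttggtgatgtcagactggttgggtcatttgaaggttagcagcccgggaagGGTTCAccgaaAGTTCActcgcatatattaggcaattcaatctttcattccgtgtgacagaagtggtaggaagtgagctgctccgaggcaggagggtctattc
The search took AGGTCA as the core, with AGTTCA as its first variant, GGGTCA as another and GGTTCA as the last, on both strands. In Cyp26a1 the element reads on the strand opposite to the gene and is centred at −24 from the start (chr19:37697776-37697792), and in Rarb it reads with the gene, centred at −45. Among the 10613 tested genes with a promoter in the RefSeq table, 7 held a DR5 (0.07%), 13 a DR2 (0.12%) and 31 a DR1 (0.29%), the same repeats with a spacer of 2 bases or 1 base, which the pair is also known to bind. Of the 427 genes higher by 2-fold or more with a promoter entry 4 held a DR5 (0.94%), 1 a DR2 (0.23%) and 1 a DR1 (0.23%). The 305 lower by 2-fold or more held none of the 3. Of the 4 with a DR5, Cyp26a1 and Rarb reached the filter of 1 TPM only through RA libraries. A higher level with RA was thus built into their being tested. For the other 2 this was not checked, and the shares are description only. The other 2 of the 4 were Ppbp, a platelet chemokine with the element centred at −238, and Hbb-y, an embryonic globin with the element at −125:
Ppbp: TGACCTaggtcTGACCT
Hbb-y: TGACCCtcccaTGACCT
Both were low: Ppbp read 2.66, 4.38 and 2.25 TPM with RA and at most 0.502 TPM without it, and Hbb-y read 1.18, 1.55 and 1.16 TPM with RA and was listed at 0 in all 3 libraries without it. These matches describe letters in a 300-base window, and binding was not measured.

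The wider set of genes that handle retinoids rose with few exceptions. Of 15 tested members of the list of retinoid metabolism and binding proteins, 13 rose and 1 fell. The 3 Cyp26 genes reached the filter only through RA libraries, and of the other 12 members 10 rose and 1 fell. The summed level of all 17 members of the list, the Cyp26 genes included, was 120 to 126 TPM without RA and 550 to 645 TPM with it. Cyp26b1, a related RA hydroxylase, was at 0.14, 0 and 0 TPM without RA and at 21.5, 19.9 and 22.7 TPM with RA (change 4.42 ± 0.10). Cyp26c1, the remaining member of the family, was listed at 0 in all 3 libraries without RA and read 2.84, 1.88 and 2.87 TPM with it. The order with RA was thus Cyp26a1, then Cyp26b1, then Cyp26c1, with no overlap between neighbours.

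Uptake and storage genes followed the same direction. Stra6, the membrane receptor that takes up retinol from its carrier, read 1.38, 1.48 and 1.4 TPM without RA and 42.9, 34.5 and 42.8 TPM with RA (change 4.08 ± 0.12). Dhrs3, which reduces retinal back to retinol, rose from 3.2 ± 0.287 to 39.1 ± 2.89 TPM. For these 2 genes the groups were far apart, with every RA library above every library without RA. Smaller changes were seen for the plasma carrier Rbp4 (1.40), the RA-making enzyme Aldh1a2 (0.80, with 3.09 ± 0.209 TPM in RA) and the RA carrier Crabp2 (0.75).

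Among the receptors, Rarb had the largest change. Of 12 retinoid receptors and coregulators tested, 4 rose and 3 fell (5 and 5 without library 2). Rarb read 0.0576, 0 and 0 TPM without RA and 4.94, 6.91 and 3.28 TPM with RA (change 2.52 ± 0.17, adjusted p 1.54e-07, limma), with no overlap. Rara rose from 35.2 ± 2.27 to 60.8 ± 6.18 TPM (0.77 ± 0.10). Rarg, the RAR gene with the highest level in these cells, read 286, 273 and 268 TPM without RA and 299, 260 and 306 TPM with it, and did not pass the test (0.06, adjusted p 0.507, limma); after correction for length and GC content its sign turned (−0.19, adjusted p 0.0238). Of the RXR genes, Rxrb rose by 0.50, a change that shrank to 0.20 after correction for length and GC content, and the scarce Rxrg fell from 1.93 ± 0.615 to 0.644 ± 0.0622 TPM. The orphan receptor list gave 2 genes higher and 3 lower of 10. Nr0b1 (Dax1), which is tied to naive ESC, fell from 176 ± 5.13 to 58.9 ± 6.59 TPM, and Nr6a1 (GCNF), a known repressor of Pou5f1, rose from 32.1 ± 3.48 to 63.7 ± 6.11 TPM.

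**Figure D2:**
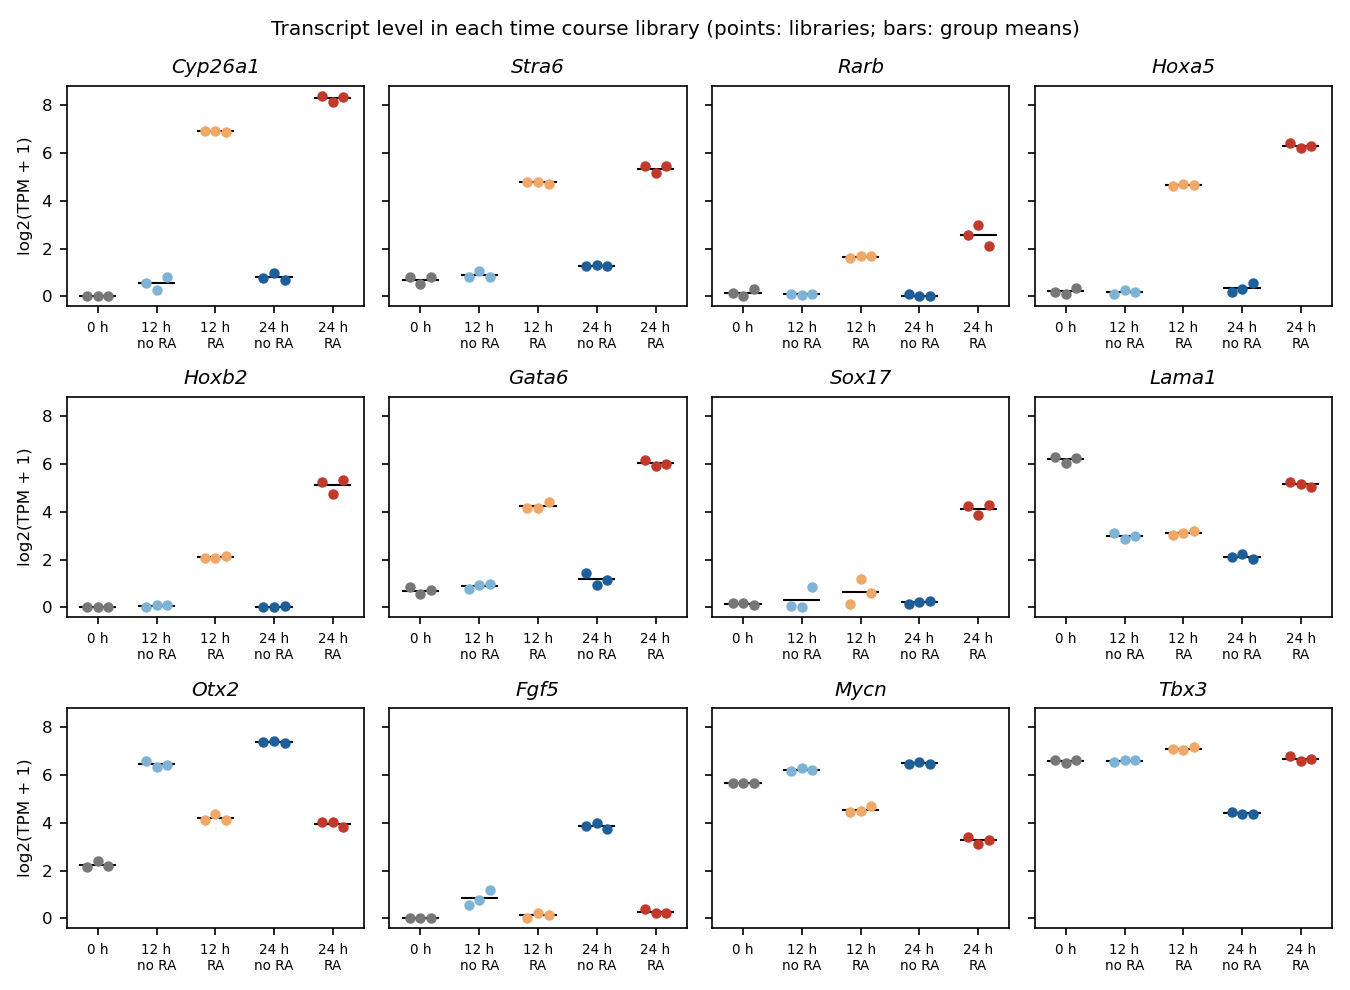
Level of 12 genes in each of the 15 time course libraries (points; bars are group means of 3 libraries), as log2(TPM + 1), by time and treatment. In the panels from Cyp26a1 to Lama1 the 24 h RA points stand above the 24 h points without RA, in those of Otx2, Fgf5 and Mycn below them, and Tbx3 stays near its 0 h level only with RA.

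Hox genes encode homeodomain factors that set position along the body axis, and they lie in 4 clusters in which neighbours are switched on in order. Of the 15 members of paralog groups 1 to 5, 12 were tested, and 9 of these reached the filter of 1 TPM only through RA libraries, so that a higher level with RA was built into their being tested. All 12 were higher, as were the 3 that reached it without RA libraries. The summed level of all 15 members went from 4.62 to 5.25 TPM without RA to 273 to 316 TPM with it. In groups 6 to 9, 9 of 12 were tested and were higher, 5 of them in the filter only through RA libraries. In groups 10 to 13, 8 of 12 were tested, 3 of them only through RA libraries, and 5 rose. The summed level of groups 10 to 13 was 2.57 to 3.06 TPM without RA and 19.24 to 25.13 TPM with it. Both lay below the 28.95 to 31.93 TPM of ESC at 0 h. Hoxc8, Hoxa13 and all listed Hoxd genes but Hoxd13 stayed under the filter.

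Within the clusters, Hoxa5 had the highest level with RA. It read 0.12, 0.221 and 0.492 TPM without RA and 84, 73.6 and 78.9 TPM with it (change 5.97 ± 0.12). Hoxa7 rose from 0.829 ± 0.321 to 52.2 ± 4.22 TPM. On the Hoxb cluster, Hoxb2 read 0, 0 and 0.0365 TPM without RA and 36.9, 25.8 and 39.4 TPM with it, and Hoxb4 rose from 0.128 ± 0.00465 to 19.3 ± 2.6 TPM. Hoxb1, Hoxb3, Hoxb5, Hoxb8 and Hoxa6 were listed at 0 in all 3 libraries without RA, so their levels are given without a fold. Hoxb5 read 38.1, 32.3 and 36.8 TPM with RA, and Hoxb8 26.7, 25.7 and 27.1 TPM. Levels were lower at the 5′ ends of both clusters: Hoxa10 reached 12.5 ± 1.28 TPM, Hoxa11 1.46 ± 0.229 TPM and Hoxb13 2.19 ± 0.945 TPM.

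Genes of the Hoxc cluster rose to lower levels. Hoxc4 rose from 1.11 ± 0.0864 to 6.17 ± 1.14 TPM, Hoxc5 from 0.287 ± 0.098 to 1.71 ± 0.323 TPM and Hoxc6 from 0.512 ± 0.294 to 1.59 ± 0.287 TPM. Hoxc9 stood at 0.611, 0.663 and 0.645 TPM with RA. These 4 genes had been higher in ESC at 0 h than without RA at 24 h, with means of 5.82, 1.97, 2.86 and 1.23 TPM for Hoxc4, Hoxc5, Hoxc6 and Hoxc9.

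Changed genes lay side by side at the 2 clusters. In the order of tested genes along the chromosomes, 15 runs of 3 or more neighbours were all higher by 2-fold or more, together 71 genes. The longest run held 15 genes from Halr1 to Hoxa11 (chromosome 6, 52102949 to 52245810) and the next 12 genes from Hoxb9 to Skap1 (chromosome 11, 96271457 to 96759130). Both hold antisense RNAs such as Hoxb3os, which read 24.2, 26 and 24.1 TPM with RA, and because the strand of the counting is not stated, reads of antisense and Hox genes cannot be told apart. Most Hox genes of these 2 runs reached the filter only through RA libraries, and untested genes do not break a run. The length of the runs was thus partly set by the filter. The number of runs to be expected from the share of all genes was not computed. A run of 4 held Rhox6, Rhox9, Rhox10 and Rhox13, homeobox genes of the X chromosome, and a run of 3 held Stra6 and its neighbours Islr and Islr2 on chromosome 9. Downward runs were fewer, 7 of 3 genes each, among them Fgf4 and Fgf15 with the predicted gene between them on chromosome 7.

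The cofactors that Hox proteins bind DNA with moved in part. Of 11 Meis, Pbx, Pknox and Tgif genes, 6 rose and 2 fell (median 0.58). Meis1 rose from 2.53 ± 0.352 to 24 ± 2.05 TPM, Meis2 from 9.58 ± 0.841 to 27.3 ± 3.64 TPM and Pbx2 from 41.9 ± 2 to 92.8 ± 10.5 TPM. The 2 that fell were the repressors Tgif1 (−0.46) and Tgif2 (−0.45), and the fall of Tgif1 did not hold after correction for length and GC content (−0.23, adjusted p 0.26).

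Caudal genes link RA and WNT signals to the Hox clusters in the tail bud. Of 10 caudal and primitive streak genes 7 rose and none fell, 3 of the 10 having reached the filter only through RA libraries, and 4 rose after correction for length and GC content. Cdx1 dominated: it read 0.718, 0.714 and 0.639 TPM without RA and 103, 84 and 104 TPM with RA (change 5.85 ± 0.12), where ESC at 0 h had 64.5 ± 4.41 TPM. The other members were far lower with RA. Wnt8a reached 4.13 ± 0.704 TPM and Cdx2 1.62 ± 0.133 TPM.

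Transcription factors of the endoderm came up from very low levels. Of 11 tested, 10 rose and 1 fell, but 8 of the 11 reached the filter only through RA libraries, so that the count is no support for a direction. Of the other 3, 2 rose and 1 fell. Outside the Hox and endoderm factor lists, a list held at most 4 members that entered in this way. Gata6, which starts the primitive endoderm programme, read 1.71, 0.906 and 1.21 TPM without RA and 71.1, 59.7 and 63 TPM with RA (change 4.86 ± 0.14, adjusted p 3.7e-11, limma). Sox17 read 0.115, 0.17 and 0.186 TPM without RA and 18, 13.8 and 18.3 TPM with it. Gata4 rose from 0.297 ± 0.0399 to 15.7 ± 1.87 TPM and Sox7 from 0.292 ± 0.105 to 8.65 ± 0.138 TPM. In each of these 4 genes the groups were widely apart. The forkhead genes Foxq1 (7.24 ± 0.771 TPM with RA), Foxa1 (4.73 ± 0.684) and Foxa2 (2.47 ± 0.711) rose to lower levels, and Prdm1 fell (−1.02). Pdgfra, the receptor that marks primitive endoderm, rose from 0.258 ± 0.0231 to 7.51 ± 2.76 TPM. In bulk RNA, more cells of a type and more RNA per cell cannot be told apart.

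Downstream endoderm products were mixed. Of 12 endocytosis and secreted proteins of the endoderm, 9 rose and 3 fell (median 0.56), or 6 and 3 after correction for length and GC content. Dab2 and Cubn reached the filter only through RA libraries, and of the other 10 genes 7 rose and 3 fell. Srgn, a secreted proteoglycan core, rose from 1.76 ± 0.422 to 28.2 ± 3.69 TPM, and the endocytic adaptor Dab2 from 0.347 ± 0.152 to 4.42 ± 0.461 TPM. The cubilin receptor pair Amn and Cubn rose to 6.7 ± 1.34 and 2.82 ± 1.94 TPM, whereas Lrp2 (megalin), their partner in uptake, fell from 26.3 ± 3.11 to 11 ± 4.97 TPM. Ttr, Apoa1 and Afp, abundant products of mature visceral endoderm, stayed under the filter.

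Basement membrane genes, which parietal endoderm makes in bulk, rose in 11 of 18 tested members and fell in 3 (median 0.30). Lama1, a laminin chain, read 3.37, 3.68 and 3.05 TPM without RA and 37.1, 35.1 and 32.3 TPM with RA (change 3.04 ± 0.10), while ESC at 0 h had 72.6 ± 6.25 TPM. The collagen chaperone Serpinh1 (Hsp47) rose from 17.2 ± 1.48 to 71.3 ± 8.84 TPM, Col4a2 from 13.8 ± 0.723 to 37.2 ± 3.89 TPM and Col4a1 from 40 ± 3.09 to 77.4 ± 6.7 TPM. Nid2, the basement membrane linker nidogen-2, fell from 267 ± 13.8 to 164 ± 12.1 TPM. Among matrix receptors 6 of 11 rose and 2 fell (6 and 4 without library 2), with the integrin chains Itgb3 (1.10) and Itga5 (0.82).

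**Figure D3:**
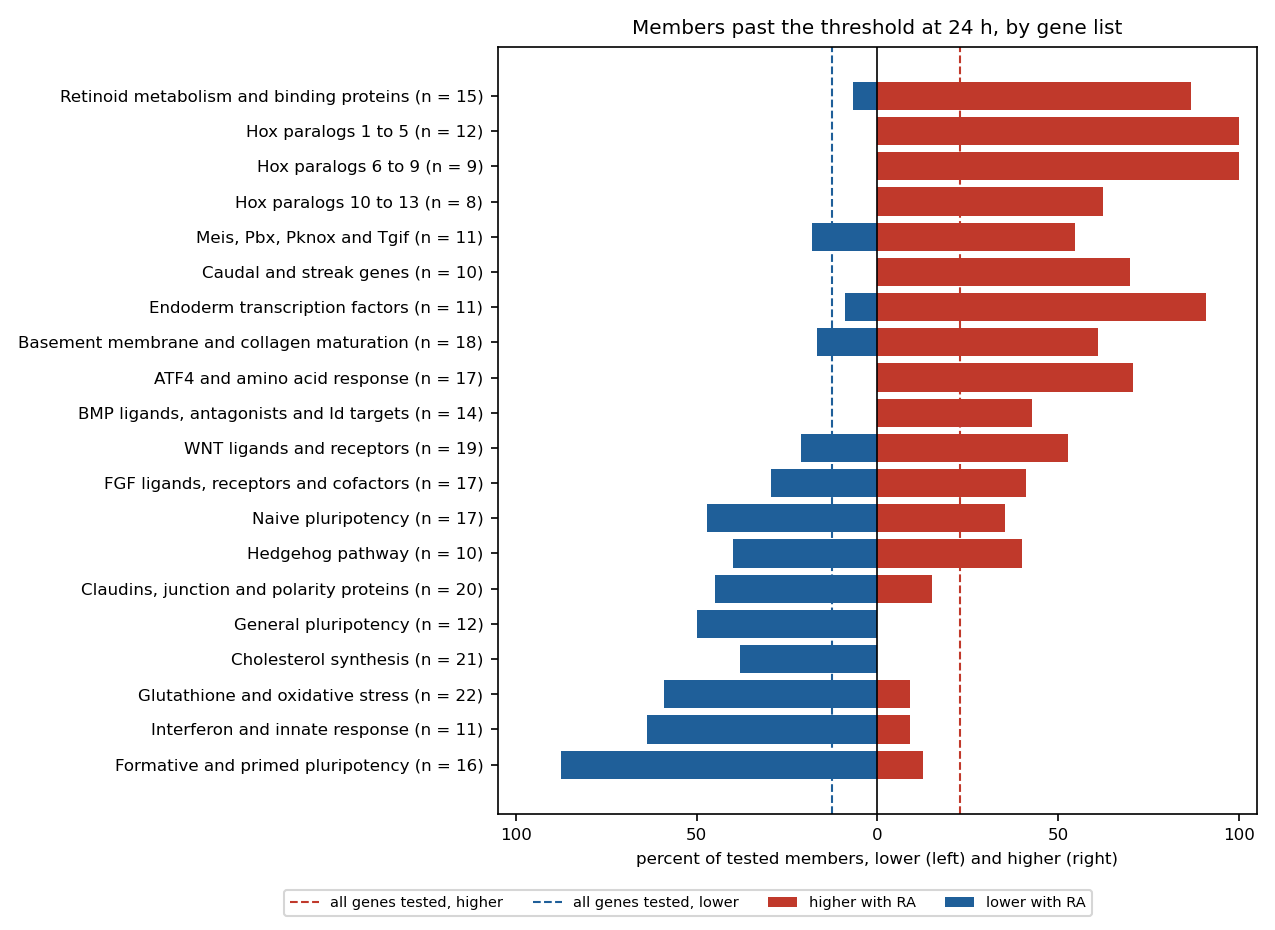
Percent of the tested members of 20 gene lists that were higher (right, red) or lower (left, blue) with RA at 24 h; n is the number tested, and dashed lines give the same over all genes tested (22.8% and 12.5%). Hox groups 1 to 9 reach 100% on the right, where most members reached the filter only through RA libraries, and the formative list is farthest to the left.

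Genes of the formative state, which ESC enter when they leave naive pluripotency, were lower with RA. Of 16 tested, 14 fell and 2 rose, with a median change of −1.09. Otx2, a factor that drives this transition, read 167, 174 and 162 TPM without RA and 15.2, 15.5 and 13.4 TPM with RA (change −3.43 ± 0.10, adjusted p 3e-11, limma). Fgf5 read 13.6, 15 and 12.5 TPM without RA and 0.303, 0.183 and 0.15 TPM with it (−3.60 ± 0.14), the largest fall of any gene tested. Foxd3 fell from 35.9 ± 3.74 to 3.73 ± 0.248 TPM, the epithelial factor Grhl2 from 50 ± 1.5 to 3.83 ± 0.234 TPM and Pou3f1 (Oct6) from 51.6 ± 4.32 to 14.8 ± 1.39 TPM. No library of one group overlapped the other in these 5 genes. The 2 that rose, Dusp6 (1.03) and Etv4 (0.82), are read-outs of ERK signalling.

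Naive genes did not move as one. Of 17 tested, 6 rose, 8 fell and 3 did not pass (median −0.12). Tbx3 read 21.2, 20 and 19.6 TPM without RA and 110, 94.9 and 101 TPM with RA (change 2.27 ± 0.06), close in level to the 95.5 ± 3.99 TPM of ESC at 0 h. Klf5 rose from 82.5 ± 2.14 to 163 ± 7.68 TPM. In the other direction, the threonine-degrading enzyme Tdh fell from 236 ± 4.06 to 46.8 ± 6.55 TPM, and Fgf4 from 180 ± 4.68 to 53.7 ± 5.14 TPM. Zfp42 (Rex1) fell from 380 ± 20.7 to 278 ± 40.2 TPM. Of 12 general pluripotency genes 6 fell by small amounts and none rose (median −0.33): Dppa4 by −0.77, Tdgf1 by −0.56 and Sox2 by −0.48. After correction for length and GC content, 9 of these 12 fell and 2 rose.

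FGF signalling changed on both the ligand and the receptor side. Of 17 FGF ligands, receptors and cofactors 7 rose and 5 fell (median 0.08). Without the 3 that reached the filter only through RA libraries, 5 of 14 rose and 5 fell. The summed level of the list was 355 to 367 TPM without RA and 181 to 188 TPM with it. The ligands Fgf5, Fgf15 and Fgf4 fell. Fgf15 read 66.3, 64.3 and 69.2 TPM without RA and 11.7, 9.93 and 9.56 TPM with it. The receptors Fgfr2, used by primitive endoderm, and Fgfr3 rose, from 1.32 ± 0.217 to 13 ± 1.46 TPM and from 0.587 ± 0.276 to 3.92 ± 0.193 TPM. Among 17 ERK feedback and immediate response genes, 7 rose and 5 fell: the phosphatase genes Dusp6 and Dusp14 (1.26) rose, and the factors Egr1 (−1.05) and Etv1 (−1.39) fell.

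In the WNT pathway, 10 of 19 ligands and receptors rose and 4 fell (median 0.56). Without the 4 that reached the filter only through RA libraries, 6 of 15 rose and 4 fell. Wnt7b rose from 1.47 ± 0.412 to 4.63 ± 1.11 TPM and the receptor Fzd10 from 1.87 ± 0.211 to 5.03 ± 0.714 TPM, whereas Wnt5a fell from 1.35 ± 0.27 to 0.134 ± 0.0244 TPM. Among 19 inhibitors and targets, 4 rose and 5 fell, or 2 and 5 of the 17 that reached the filter without RA libraries. The secreted inhibitor Sfrp5 read 1.36, 1.39 and 1.16 TPM without RA and 22.7, 18 and 20.3 TPM with RA, and Dkk1, another inhibitor, was listed at 0 in all 3 libraries without RA and read 3.64, 4.13 and 4.2 TPM with it. The nuclear effector Lef1 fell from 77.8 ± 3.9 to 7.64 ± 1.41 TPM, Ccnd1 (cyclin D1) from 105 ± 2.74 to 24.5 ± 3.03 TPM and the R-spondin receptor Lgr4 from 33.9 ± 2.47 to 8.24 ± 3.62 TPM. Axin2, a common WNT read-out, did not pass (−0.20, adjusted p 0.122, limma), with 13.4 ± 0.744 TPM without RA and 11.6 ± 1.54 TPM with it. It passed as lower without RA_24h library 1 (−0.29, adjusted p 0.0339) and after correction for length and GC content (−0.37, adjusted p 0.00235).

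Of 14 BMP signalling genes 6 rose and none fell (median 0.31), while 8 rose and 1 fell after correction for length and GC content. Without Bmp6, which reached the filter only through RA libraries, 5 of 13 rose. Bmp6, a ligand, rose from 0.442 ± 0.137 to 6.62 ± 0.304 TPM, and Bmp7 from 1.45 ± 0.1 to 3.52 ± 0.697 TPM. The target and inhibitor Smad6 rose from 3.4 ± 0.471 to 13.1 ± 0.799 TPM, and the target Id1 from 78.1 ± 3.78 to 164 ± 17.4 TPM. Without library 2, 2 members of this list fell. Of 15 Nodal and activin genes 6 rose and 3 fell. Lefty1, a Nodal inhibitor, rose from 23.3 ± 2.8 to 80.2 ± 10.4 TPM, and Fst (follistatin), an activin trap, fell from 6.16 ± 0.852 to 2.01 ± 0.387 TPM.

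Of 10 Hedgehog genes tested, 4 rose and 4 fell. The co-receptors Gas1 and Boc rose, from 0.626 ± 0.334 to 8.42 ± 1.04 TPM and from 1.34 ± 0.0999 to 5.32 ± 0.747 TPM. The target and effector genes Gli1 (−0.94) and Gli2 (−0.87) fell. In the Notch list 2 of 14 rose and 3 fell, with the ligand Dll1 at −1.28 and the target Hes1 at 0.67. Of 15 Hippo and YAP genes 4 rose, a share near that of all genes, and 1 fell (5 and 3 without library 2), and the YAP target Ccn2 rose from 11.4 ± 0.591 to 22.2 ± 1.88 TPM.

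**Figure D4:**
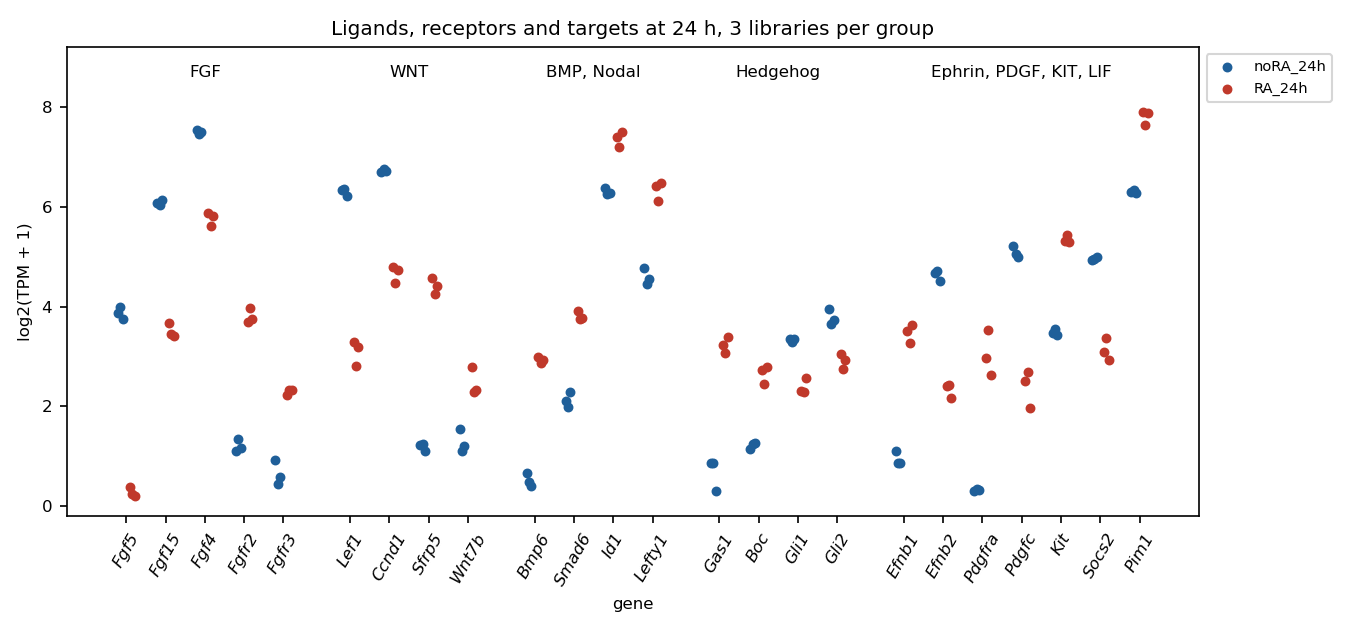
Level of 24 signalling genes in the 3 noRA_24h (blue) and 3 RA_24h (red) libraries, as log2(TPM + 1), 1 point per library, grouped by pathway. Lef1, Ccnd1, Fgf5, Fgf15, Efnb2 and Pdgfc are lower with RA and Fgfr2, Sfrp5, Bmp6, Gas1, Efnb1 and Pdgfra higher, with no overlap between the groups.

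Receptor kinases and guidance cues moved in both directions. Efnb1, an ephrin ligand, read 1.16, 0.834 and 0.833 TPM without RA and 10.3, 8.6 and 11.4 TPM with it, while its relative Efnb2 fell from 23.9 ± 1.74 to 4.07 ± 0.521 TPM. In all, 6 of 14 ephrins and Eph receptors rose and 2 fell. Pdgfra rose and one of its ligands, Pdgfc, fell from 33.1 ± 2.86 to 4.35 ± 1.31 TPM. Kit, the stem cell factor receptor, rose from 10.2 ± 0.46 to 39.8 ± 2.03 TPM, and Gfra1, a GDNF co-receptor, from 0.776 ± 0.178 to 5.82 ± 0.56 TPM. In the receptor kinase list 8 of 17 genes rose and 3 fell. Pdgfra, Ret and Gfra1 reached the filter only through RA libraries, and of the other 14 genes 5 rose and 3 fell. Of 17 semaphorins, plexins, netrins and slits 5 rose and 8 fell, none of the falls reaching 2-fold.

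Of 11 genes for the LIF receptor and STAT3 targets, 4 rose and 2 fell. Socs2 fell from 30.1 ± 0.762 to 7.83 ± 1.37 TPM, and the receptor chain Lifr from 11.2 ± 1.81 to 3.31 ± 2.12 TPM. The kinase gene Pim1 rose from 77.9 ± 1.75 to 223 ± 21.2 TPM. Socs3, a sensitive STAT3 target, read 159 ± 8.1 TPM in ESC at 0 h, 7.95 ± 1.15 TPM without RA and 12.5 ± 2.19 TPM with RA, so that it was low in both 24 h groups.

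Epithelial genes fell in several families. Of 14 cadherins and factors of the epithelial to mesenchymal transition 4 rose and 5 fell, and of 20 claudins, junction and polarity proteins 3 rose and 9 fell (median −0.47). Esrp1, an epithelial splicing regulator, fell from 28 ± 1.08 to 2.67 ± 0.853 TPM and Cdh3 (P-cadherin) from 18.8 ± 1.21 to 4.66 ± 0.867 TPM. Epcam fell from 274 ± 12.2 to 136 ± 13.6 TPM, and Cdh1 (E-cadherin) fell from 250 ± 10.8 to 165 ± 12 TPM. Cldn6 fell from 40.4 ± 0.92 to 17 ± 2.75 TPM and Jup (plakoglobin) from 88.9 ± 5.92 to 41.2 ± 4.9 TPM. The repressor Snai1 rose from 1.73 ± 0.381 to 6.09 ± 0.774 TPM, and Vim (vimentin) from 136 ± 4.32 to 200 ± 13 TPM. Not all epithelial genes fell: of 14 keratins and trophoblast markers 9 rose and none fell (median 0.48), or 6 and 1 after correction for length and GC content. Krt8 stood at 18.9 ± 0.865 TPM without RA and 48.3 ± 8.37 TPM with it, and Tfap2c at 2.46 ± 0.554 and 10.9 ± 0.998 TPM.

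Genes of the neural fate, for which RA is also known, gave 3 higher and 3 lower of 12 tested (5 and 3 without library 2). Sox1 rose from 1.11 ± 0.234 to 5.2 ± 0.853 TPM and Tubb3 from 33.1 ± 0.554 to 49.2 ± 6.75 TPM. A further 12 members of this list were under the filter. In the germline list 4 of 14 rose, a share near that of all genes, and 2 of them by 2-fold or more. Stra8, the gene that RA switches on at the start of meiosis, read 14.5, 15.6 and 14 TPM without RA and 798, 910 and 757 TPM with it (change 5.71 ± 0.11). Rec8, the meiotic cohesin subunit, rose from 8.72 ± 1.08 to 25.4 ± 2.11 TPM. Without library 2, 3 members of this list fell.

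Of 15 tested genes listed as homeobox and paired genes outside the Hox clusters 7 rose and 5 fell. The paired box gene Pax8 fell from 22.5 ± 1.7 to 1.93 ± 0.718 TPM. Of 13 Sox genes 6 rose and 3 fell, but 4 of the 13 reached the filter only through RA libraries. Of the other 9, 2 rose and 3 fell. Among 12 Myc family genes, of which 3 rose and 1 fell (5 and 2 without library 2), only Mycn changed by 2-fold or more: it read 88.4, 92.9 and 86.7 TPM without RA and 9.72, 7.67 and 8.7 TPM with it (change −3.22 ± 0.09). Of 20 G1 cyclins and CDK inhibitors 4 rose and 3 fell (6 and 6 without library 2), and the inhibitors Cdkn2d (0.96) and Cdkn1c (0.83) rose opposite to Ccnd1. Of 24 S phase and mitosis genes 1 rose and 5 fell (5 and 9 without library 2), with Pcna, the replication clamp, at −0.47.

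Genes with the largest changes outside these families were of several kinds. Sgk1, a serum-induced kinase, read 157, 169 and 161 TPM without RA and 14.4, 14.7 and 16.2 TPM with it (−3.34 ± 0.06), after 305 ± 7.47 TPM in ESC at 0 h. Vrtn (vertnin), counted in the homeobox list although it is no homeobox gene, read 11.7, 11.1 and 12.5 TPM without RA and 0.293, 0.114 and 0.225 TPM with it. Enpp2 (autotaxin), which makes lysophosphatidic acid, fell from 10.3 ± 1.64 to 0.0925 ± 0.0801 TPM. The kinase gene Pim2 fell from 157 ± 8.39 to 25.8 ± 3.29 TPM. Upward, the zinc finger gene Zfp703 read 0.366, 0.204 and 0.245 TPM without RA and 46.4, 36.4 and 43 TPM with it, and Arg1 (arginase) rose from 0.267 ± 0.191 to 18.3 ± 2.18 TPM. Ffar3, a receptor for short-chain fatty acids, rose from 0.347 ± 0.1 to 33 ± 3.28 TPM, and Csn3, a milk casein, from 0.923 ± 0.32 to 28.1 ± 10.3 TPM.

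Metabolic lists moved by smaller amounts. Of 22 glycolysis and pyruvate genes, 4 rose and 6 fell (median −0.02), and 3 rose and 12 fell after correction for length and GC content. The glucose transporters Slc2a3 and Slc2a1 rose, from 442 ± 7.42 to 913 ± 77.8 TPM and from 496 ± 8.33 to 861 ± 88.5 TPM, and the phosphofructokinase Pfkm fell from 87 ± 3.2 to 40.6 ± 5.67 TPM. Muscle isoforms that the list did not hold rose steeply: Pgam2 read 5.68, 2.48 and 2.94 TPM without RA and 90.7, 78.8 and 98.8 TPM with it, and Fbp2, an enzyme of glucose synthesis, rose from 16.8 ± 1.28 to 243 ± 22.2 TPM. None of 21 cholesterol synthesis genes rose and 8 fell (median −0.25), or 14 after correction for length and GC content. Cyp51 fell from 68.6 ± 3.5 to 44.1 ± 1.17 TPM. Plin2, the coat protein of lipid droplets, rose from 34.3 ± 2.66 to 98.6 ± 3.91 TPM, one of 5 fatty acid and lipid handling genes of 19 that rose, against 4 that fell. Of 25 subunits of oxidative phosphorylation 9 rose and none fell, and 15 rose and 1 fell without library 2. Among 25 cytosolic ribosomal proteins none rose and 1 fell with all libraries, and 14 rose and 4 fell without library 2.

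Most tested genes of the ATF4 stress response rose, and most of the glutathione list fell. Of 17 genes of the ATF4 and amino acid response, 12 rose and none fell (median 0.52). Their summed level went from 2184 to 2252 TPM without RA to 2846 to 3125 TPM with it. Both 24 h groups lay below ESC at 0 h, where the sum was 3369 to 3464 TPM. Ddit3 (CHOP) read 45.9, 43.6 and 47.8 TPM without RA and 128, 132 and 124 TPM with it, Atf5 rose from 31.3 ± 0.872 to 69.6 ± 6.5 TPM and Atf4 itself from 277 ± 6.37 to 428 ± 33.1 TPM. Of 18 endoplasmic reticulum chaperone genes 6 rose and 1 fell (8 and 3 without library 2), and of 21 secretory transport genes 8 rose and none fell, with 5 lower without library 2. Among 22 glutathione and oxidative stress genes 13 fell and 2 rose (median −0.28). Gstm1 fell from 81.8 ± 5.18 to 40.8 ± 4.17 TPM, Nqo1 from 69 ± 5.36 to 40.4 ± 4.89 TPM and Hmox1 from 184 ± 4.41 to 118 ± 11 TPM, while the lipid peroxide reductase Gpx4 rose from 1856 ± 37 to 2831 ± 347 TPM. Of 18 apoptosis and p53 target genes 5 rose, among them the survival gene Bcl2l1 (0.77), and 2 fell (4 without library 2).

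Transporters changed in both directions. Aqp3, a water and glycerol channel, read 6.05, 4.33 and 5.97 TPM without RA and 198, 161 and 191 TPM with it (change 4.84 ± 0.11), after 90 ± 3.48 TPM in ESC at 0 h. Of 17 aquaporins, carbonic anhydrases and ion transport genes 5 rose and 5 fell, and Car14, a membrane carbonic anhydrase, fell from 12.2 ± 0.426 to 1.96 ± 0.945 TPM. Of 20 amino acid transporters 7 rose and 6 fell, or 5 and 6 of the 18 that reached the filter without RA libraries. The cationic amino acid carrier Slc7a3 fell from 433 ± 23.8 to 157 ± 11.6 TPM and Slc38a2 from 205 ± 12.4 to 65.6 ± 14.7 TPM, while the glutamine carrier Slc1a5 rose from 66.5 ± 3.47 to 156 ± 8.7 TPM. Of 20 lysosome genes 8 rose and 2 fell, but 6 rose and 6 fell after correction for length and GC content.

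Imprinted genes are expressed from 1 parental copy. Of 20 tested 7 rose and 5 fell. H19, a noncoding RNA, read 21.1, 20.8 and 19.8 TPM without RA and 186, 151 and 229 TPM with it, and its neighbour Igf2, a growth factor, reached 2.45 ± 0.436 TPM with RA from 0.508 ± 0.135 TPM. At the Dlk1 locus on chromosome 12, the growth regulator Dlk1 rose from 2.7 ± 1.54 to 24.4 ± 5.2 TPM, while the noncoding RNAs Meg3, Rian and Mirg, which lie next to each other, fell. Meg3 read 48.9, 41.9 and 52 TPM without RA and 9.61, 14.8 and 11.2 TPM with it.

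Interferon and innate response genes fell in 7 of 11 tested members and rose in 1 (none without library 2; median −0.53). Irf1, a transcription factor of this response, read 65.6, 74.6 and 67.4 TPM without RA and 17.6, 19.2 and 17.8 TPM with it. The RNA sensor Ddx58 (RIG-I) fell from 23.9 ± 1.67 to 5.39 ± 2.56 TPM and the membrane protein Ifitm1 from 114 ± 8.4 to 61.5 ± 7.86 TPM. Of 10 antigen presentation genes 3 rose, a share near that of all genes, and none fell (1 fell without library 2). H2-K1 read 59.6 ± 1.8 TPM without RA and 113 ± 5.87 TPM with it. Of 18 S100, galectin and annexin genes 8 rose and 5 fell.

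Among chromatin genes, the de novo DNA methyltransferases fell. Dnmt3b, which rises on exit from naive pluripotency, read 443, 424 and 396 TPM without RA and 166, 144 and 152 TPM with it, and Dnmt3a fell from 178 ± 14.9 to 108 ± 10.2 TPM. Of 14 DNA methylation genes 2 rose and 4 fell. Polycomb and trithorax genes gave 5 higher and 2 lower of 22, with 10 lower without library 2, and cohesin, CTCF, Mediator and looping factors 3 lower of 17, with 10 lower without library 2. Cbx8, a chromobox subunit of polycomb complexes, rose to 2.41 ± 0.402 TPM.

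Markers of cell types that a dish of ESC could also hold were summed as a check. The summed level of 15 fibroblast and feeder markers was 60.4 to 63.9 TPM without RA and 74.2 to 85.4 TPM with it; 7 of 12 tested rose and 2 fell, among them Pdgfrb (1.41) upward and Thy1 (−2.15) downward, and Col3a1, Postn and Lum were under the filter. Blood and endothelial markers summed to 86.3 to 92.7 TPM without RA and 103 to 121 TPM with it, of which Pecam1, also an ESC gene, made up 70.6 ± 0.932 and 99.8 ± 7.95 TPM. Genes of the 2-cell-like state, which can flare in ESC cultures, summed to 0.941 to 1.33 TPM without RA and 3.74 to 7.66 TPM with it, and none of the 11 found in the files reached the filter. Nuclear retained and mitochondrial RNAs gave 3 lower and none higher of 11, against 5 lower without RA_24h library 2, 1 lower without any other 1 of the 6 libraries, and 1 lower after correction for length and GC content. The part of these cells or of RNA quality in the changes above was not tested.

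The 24 h effect was also set against the effect at 12 h, (RA_24h − noRA_24h) − (RA_12h − noRA_12h), in the same model. The RA effect was greater (more positive) at 24 h for 581 genes (4.17% of those tested) and smaller for 374 (2.68%). Among Hox groups 1 to 5, 11 of 12 had a greater effect at 24 h and none a smaller one, among groups 6 to 9 7 of 9, among endoderm transcription factors 9 of 11 and among basement membrane genes 7 of 18. The Hox and endoderm counts again hold mostly genes that entered through RA libraries. Among formative genes 10 of 16 had a smaller, here more negative, effect at 24 h and none a greater one, and likewise 7 of 21 cholesterol synthesis genes. Sox17 read 0.286 TPM without and 0.618 TPM with RA at 12 h, and the difference of its effects was 3.60 ± 0.36 (adjusted p 5.6e-05, limma). Lama1 was level at 12 h, with 7 TPM without and 7.58 TPM with RA (difference 2.93 ± 0.14). Cyp26a1 had already changed by 6.39 at 12 h and differed by 1.10 ± 0.19, while Stra6 differed by 0.19 ± 0.17 and did not pass (adjusted p 0.62). Psors1c2 was higher with RA at 12 h (25 against 10.2 TPM) and lower with RA at 24 h (10.2 against 19.1 TPM). Lgals9, a galectin, was 3.16 TPM without and 40.9 TPM with RA at 12 h and 17.5 and 46 TPM at 24 h, so that the smaller difference at 24 h (−2.0) went with a higher level without RA.

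**Figure D5:**
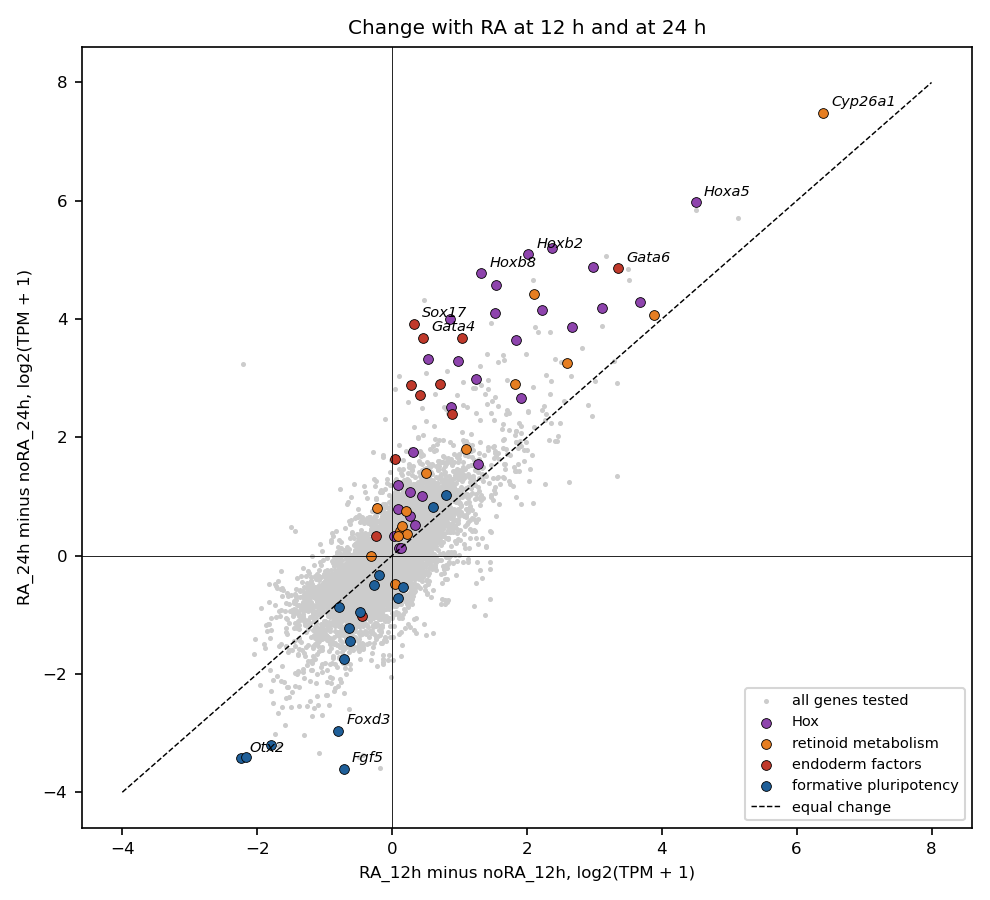
Change with RA at 12 h (x axis) against that at 24 h (y axis), both on log2(TPM + 1), for each gene tested (grey) and for members of 4 lists (coloured). Most Hox genes and endoderm factors lie above the dashed line of equal change, Fgf5 and Foxd3 below it, and Cyp26a1 is high at both times.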

How the data were processed

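Poly(A) RNA of the 15 time course libraries was sequenced as paired ends, and 6 of these libraries form the comparison. The tools HISAT2 and StringTie and the build mm10 are those the submitters' processing notes list; versions and strand setting: not given in the sources used here. TPM, FPKM and mean coverage per gene, per the file headers, stand in 1 deposited table per library. A count test was not run, since these units are not counts. Values were taken as log2(TPM + 1) for genes with TPM of at least 1 in at least 3 libraries. One limma model with an intensity trend (limma 3.58.1, R 4.3.3) was fitted over the 5 time course groups, with Benjamini-Hochberg adjustment over all 13948 genes and a threshold of 0.05. The deposited FPKM values served as an alternative, and the deposited coverage gave the aligned bases. The script was tested on simulated data. Replicate numbers did not pair the samples.

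The comparison, its members and the gene lists were chosen with earlier results of these data known. Genes named are Cyp26a1, Gata6 and Otx2, the 25 highest and 25 lowest changes past the threshold without overlap and outside predicted models, up to 5 members of each list with the largest absolute change, the 8 greatest and 8 smallest differences between times, genes with the largest gaps of RA_24h library 2, and promoters with a DR5. The following were chosen after their values were seen: Aldh1a2, Atf4, Axin2, Cdh1, Crabp2, Cyp26c1, Etv4, Fbp2, Fgfr3, Foxa1, Foxa2, Foxq1, Gpx4, Hmox1, Hoxa6, Hoxb1, Hoxb3, Hoxc4, Hoxc5, Hoxc6, Hoxc9, Igf2, Lrp2, Nid2, Pou3f1, Pou5f1, Prdm1, Rarg, Rxrb, Socs3, Tgif1, Tgif2, Vim and Zfp42. Some genes the rule names are not reported here. Promoter sequences came from RefSeq. Alternatives changed the pseudocount, the filter, the scaling, the model, library weights, length and GC correction, and the libraries entered; the correction together with leaving out RA_24h library 2 was chosen after seeing the data.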

Additional observations from a re-analysis of the deposited data

Results flagged for a closer look

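A test of the difference between the RA effects at 24 h and 12 h (limma, Benjamini-Hochberg adjusted p below 0.05) separated 581 genes with a greater and 374 with a smaller effect at 24 h. The greatest differences, on log2(TPM + 1), were those of Pgam2 (3.84), Sox17 (3.60), Hoxb8 (3.45), Gata4 (3.23), Hoxb9 (3.14), Hoxb2 (3.07), Hoxb6 (3.03) and Lama1 (2.93). The smallest were those of Enpp2 (−2.93), Vrtn (−2.91), Fgf5 (−2.88), Sgk1 (−2.26), Foxd3 (−2.16), Psors1c2 (−2.06), Tstd1 (−2.04) and Lgals9 (−2.0). Both effects have their own controls, and 12 h and 24 h libraries were not said to come from the same cultures.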

How the results depend on the processing

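Leaving out each compared library in turn gave 2465 to 3948 genes higher, 1326 to 3583 lower, 582 to 640 higher by 2-fold or more, 382 to 1336 lower by 2-fold or more, and 384 to 1075 with a greater and 264 to 545 with a smaller effect at 24 h than at 12 h. The upper ends for lower genes (3583 and 1336) and for greater effects (1075) came without RA_24h library 2, and the lower ends of the greater effects without RA_12h library 3 (384) and RA_24h library 1 (385). With limma's arrayWeights, 4781 genes were higher, 4333 lower, 1140 lower by 2-fold or more, 2793 greater and 1645 smaller. With the length and GC correction and without RA_24h library 2, chosen after seeing the data, 3704 genes were lower, 682 lower by 2-fold or more and 749 smaller. A pseudocount of 0.1 gave 936 genes higher by 2-fold or more. With only genes of a mean of at least 5 TPM, which tests fewer genes, the counts were 289 and 269 by 2-fold or more and 383 greater; FPKM gave 394 and 284. Median-of-ratios scaling gave 385 and quantile normalization 279 genes with a greater effect. Apart from these settings' own construction, the cause was not tested.

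With the replicate number as a block, 2887 genes were higher and 1537 lower (604 and 416 by 2-fold or more), and 430 had a greater and 284 a smaller effect. Same-numbered libraries of the 2 groups had residual correlations of −0.03, −0.388 and −0.311, so the numbers were not taken as a pairing. Of 214 called genes followed by name through 18 alternatives, 208 kept their call in all, 6 lost it in at least 1 (Rxrb, Hoxc6, Hoxc9, Tgif1, Pou5f1 and Cdkn2c) and none reversed. Rarg, not called, reversed from 0.06 to −0.19 with the length and GC correction and to −0.25 with it and without RA_24h library 2. Tstd1 lost its call of a smaller effect with the pseudocount of 0.1 (−2.38). The files used hold no counts, so the precision of genes near 1 TPM could not be set from depth.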
